A study of Mus musculus with 24 samples.

Results

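The comparison was KO against WT bone-marrow-derived dendritic cells over days 8, 9 and 10 of culture, fitted as 1 genotype effect with day as a covariate. Its members were chosen by genotype and day in the labels, and they are 18 of the 24 libraries of the series, 9 KO and 9 WT. Messenger RNA was read by bulk sequencing in cells grown from the marrow of 8- to 10-week-old mice of both sexes in medium with GM-CSF, a growth factor that drives myeloid precursors towards dendritic cells. WT mice were ARPC4 Flox/Flox with CD11c-Cre -/-, and KO mice were ARPC4 Flox/Flox with CD11c-Cre +/-. Both genotypes therefore carry floxed alleles. Cre was present in every KO mouse and in no WT mouse, so effects of the transgene and of the deletion cannot be told apart. CD11c-Cre acts only in cells that express CD11c, the product of Itgax, so other cells in a culture keep the gene. Cells in suspension were taken, more than 90% of them positive for CD11c by flow cytometry per the labels' protocols, and cultures were replated on days 4 and 7. Each genotype had 3 mice that were sampled on all 3 days, so the 18 libraries rest on 6 animals.

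Arpc4 encodes a core subunit of the Arp2/3 complex, which nucleates new actin filaments as branches on existing ones. The complex is switched on by WASP and WAVE family proteins and shapes the lamellipodia, endocytosis and migration of dendritic cells. When dendritic cells mature they raise co-stimulatory molecules and the chemokine receptor Ccr7, which guides them to lymph nodes, and type I interferon drives a separate group of antiviral genes.

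Libraries held 19952047 to 31049798 counts. Itgax was expressed in all of them, at 585 to 1.12e+03 TPM in WT and 474 to 1.05e+03 TPM in KO (the deposited values scaled by gene length). Neutrophil markers were also abundant. The summed TPM of 15 of them was 1.01e+04 to 2.62e+04 in WT and 1.17e+04 to 2.41e+04 in KO, against 5.57e+03 to 1.08e+04 and 5.21e+03 to 1.4e+04 for 13 dendritic cell markers. For 15 macrophage markers it was 5.29e+03 to 8.99e+03 and 5.08e+03 to 1.06e+04. S100a8, S100a9, Ngp and Mmp8 gave most of the neutrophil sum. Each of the other neutrophil markers stood at 636 TPM or less, among them Ly6g at 59 TPM or less. In bulk RNA a different share of cells of a type and a different amount of RNA per cell cannot be told apart.

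The numbers of the KO mice went against the data. Ddx3y, a gene on the Y chromosome, stood at 58.3 to 76 CPM (counts relative to the library total, with TMM scaling) in WT mouse 63 on all 3 days and at 0.141 CPM or less in WT mice 65 and 66. In KO the library with high Ddx3y was labelled 68 on day 8 (61.2 CPM), 64 on day 9 (65.4 CPM) and 67 on day 10 (61.5 CPM). Each day thus had 1 library of 3 with high Ddx3y in each genotype, and the other KO libraries had 0.105 CPM or less. Xist, the RNA of the inactive X chromosome, was at 0.248 CPM or less in those 3 KO libraries and at 673 to 989 CPM in the other 6. By Ddx3y each labelled KO number thus mixes animals, and sums per labelled number can understate the spread between KO animals. The fits that treat the mouse as the replicate are therefore given with the labelled numbers and with the 3 KO libraries of high Ddx3y joined as 1 animal. The other 6 KO libraries can then be joined into 2 animals in 4 ways, and all 4 orders were run.

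**Figure D1:**
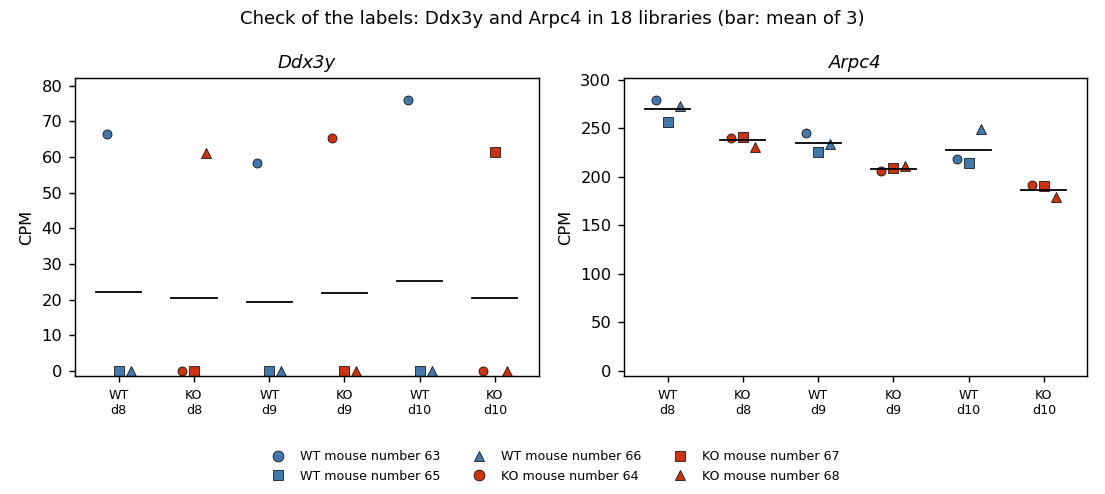
Ddx3y (left) and Arpc4 (right) in CPM on linear axes, in the 18 libraries by genotype and day, with the mouse number as the symbol and the mean of 3 libraries as a bar. High Ddx3y stays with WT mouse 63 but moves between KO numbers 68, 64 and 67, and Arpc4 is lower in KO on each day.

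The KO libraries also split in another way. The 10 most counted genes took 9.93% of counts in KO 67 on day 8, 9.65% in KO 67 on day 9 and 9.31% in KO 64 on day 10. In the other 15 libraries they took 11.8% to 15.1%. On the second principal component of log2 CPM (14.4% of the variance) the 3 KO libraries of high Ddx3y lay at 8.3, 9.6 and 19.5, the 3 of low top-10 share at -40.5, -28.3 and -24.8, the other 3 KO libraries at -23.3 (KO 64 on day 8), -8.1 and -1.2, and WT libraries between -5.1 and 20.9. KO 64 on day 8 thus lay close to the 3 of low top-10 share on this component. The fourth of the 4 orders joins the 3 libraries of low top-10 share as 1 animal. Their deviations from the group means went together, with r of 0.79, 0.77 and 0.82. Where leaving out either set ended the library-fit call of a gene named below, or moved the log2 fold change of such a called gene by over 1.5 times, the value without the set is given beside it.

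Arpc4 itself (ENSMUSG00000079426.13, GRCm38 chromosome 6, 113378115 to 113390448, forward strand, protein-coding) was read first. On day 8 WT libraries stood at 256, 273 and 279 CPM and KO libraries at 231, 240 and 241 CPM. On day 9 they stood at 225, 233 and 245 CPM in WT and at 206, 209 and 211 CPM in KO, and on day 10 at 214, 218 and 249 CPM in WT and at 179, 190 and 192 CPM in KO. The genotypes did not overlap within any day, although they did across days. Over the 3 days the log2 fold change of KO over WT was -0.21 (SE 0.037), a change of -13.7%, with an adjusted p of 0.0054 in the library fit. That fit is edgeR's quasi-likelihood test on the 18 libraries with Benjamini-Hochberg adjustment over 14307 genes, and it counts repeated days of 1 mouse as independent. In the animal fit, the same test on counts summed over the 3 days of each labelled mouse number (n = 3 against 3 labelled numbers), the adjusted p was 0.053. With the mouse as a block and the KO libraries joined by Ddx3y (limma voom), it was 0.038 to 0.072 over the 4 orders. In the animal sums with joined numbers edgeR's adjusted p was 0.25 to 0.46. Arpc4 thus passed the library fit and neither fit on animal sums, while the joined block called it in every order but the fourth. Reads over the gene do not show which exons remained, and Ttll3, which overlaps Arpc4, had a log2 fold change of 0.06 (SE 0.11, adjusted p 0.83 in the library fit).

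None of the other 9 Arp2/3 subunits passed the library fit, and their median log2 fold change was 0.00052, against 0.0044 for all genes tested. The largest difference among them was in Arpc1b, a subunit of the blood-cell form of the complex, at 0.12 (SE 0.048, edgeR adjusted p 0.18). Of 29 activators and inhibitors of the complex tested, 1 was called (3.85% of all genes were called in either direction). This was Arpin, a protein that inhibits Arp2/3 at the cell edge, with 3.07 to 5.03 CPM in WT (median 3.97) and 4.06 to 6.96 CPM in KO (median 5.57). Its log2 fold change was 0.49 (SE 0.093), with an adjusted p of 0.0086 in the library fit and 0.066 in the animal fit. The block with KO libraries joined by Ddx3y did not call Arpin in any order. None of 14 formins and other nucleators was called, with a median log2 fold change of 0.08.

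In the library fit 551 of 14307 genes (3.85%) were called at an adjusted p under 0.05, 344 (2.4%) higher and 207 (1.45%) lower in KO. All 551 had the same sign on days 8, 9 and 10, as did 7244 genes (50.6%) of all tested. Selection on the effect over these same days favours a shared sign, so this is not separate support. On the log2(TPM + 1) scale with limma-trend, 634 genes were called and 498 of them were higher, 78.5% against 62.4% in the library fit, and the median log2 fold change of all genes was 0.06 against 0.0044. Most differences were small. Among the 551 genes, 93 differed by at least 2-fold, 67 higher and 26 lower, and 14 genes (0.0979%) had no overlap between the 9 KO and the 9 WT libraries, 10 of them higher in KO (0.0699%) and 4 lower (0.028%).

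The count depended on what was taken as the replicate. The animal fit with labelled numbers called 238 genes (1.66%), 152 higher (1.06%) and 86 lower (0.601%). Of these, 178 (1.24%) were among the 551. With the mouse as a block the labelled numbers gave 628 calls at a consensus correlation of -0.033. With the KO libraries joined by Ddx3y the correlation was 0.19 to 0.30 and 47 to 59 genes were called. The fourth order had the highest correlation (0.30) and the fewest calls (47). In all 4 orders 40 genes (0.28%) were called, 15 higher and 25 lower, and all 40 were among the 551. Of these, 33 (14 higher, 19 lower) also passed the animal fit, and below only these 33 are said to rise or fall. All 33 kept their sign with any mouse number, day or set of 3 KO libraries left out of the library fit, which selection on the same libraries favours. All 33 also kept their call without either set of 3 KO libraries, without WT 63 and without each KO number, but 23 did without WT 65, 27 without WT 66, 31 without day 8, 21 without day 10 and 2, Plcb4 and Itgad, without day 9. The animal fit with joined numbers called Plcb4 alone, in every order.

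**Figure D2:**
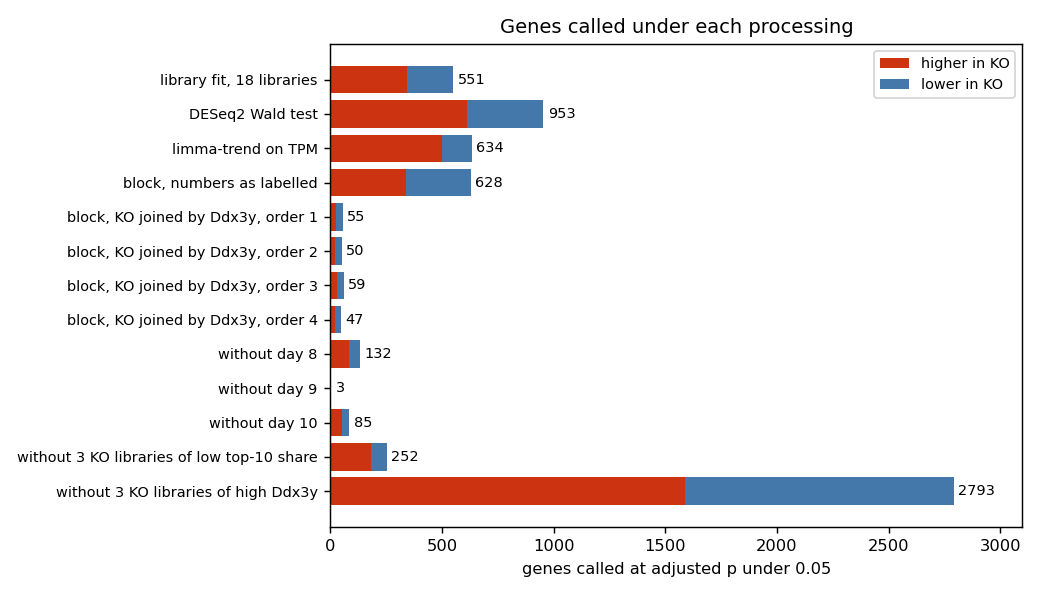
Number of genes called at an adjusted p under 0.05 (bars from 0, higher in KO in red and lower in blue) for the library fit and 12 other ways of processing the same libraries. The count is 551 with 18 libraries treated as independent, 47 to 59 with KO libraries joined by Ddx3y, 3 without day 9 and 2793 without the 3 KO libraries of high Ddx3y.

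Plcb4 was the gene that also passed the animal fit with joined numbers. It encodes phospholipase C beta 4, which cleaves a membrane phosphoinositide downstream of G protein-coupled receptors (ENSMUSG00000039943.16, GRCm38 chromosome 2, 135659011 to 136014593, forward strand, protein-coding). WT libraries stood at 0.383 to 0.824 CPM with a median of 0.486, and KO libraries at 5.95 to 10 CPM with a median of 7.59. Every KO library lay above every WT library, and of the 3 KO libraries of high Ddx3y (6.55, 5.95 and 7.24 CPM) the first and second gave the lowest KO values. The log2 fold change was 3.83 (SE 0.15), a 14.2-fold difference, with an edgeR adjusted p of 1.9e-11 in the library fit. Plcb4 kept its call in 41 of 41 alternatives to the library fit, and edgeR's adjusted p in the joined animal sums was 0.0030 to 0.0054. Its WT level is below 1 CPM, and on the log2(TPM + 1) scale the log2 fold change was 1.69. Of 9 phospholipase C genes tested it was the one called (3.85% of all genes were), and the median of the list was -0.00059. Its neighbour Plcb1 had a log2 fold change of -0.23 (SE 0.16, adjusted p 0.50), and -0.048 (SE 0.14) without the 3 KO libraries of high Ddx3y.

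Itgad encodes the alpha D integrin chain, a partner of the beta 2 chain on myeloid cells, and lies next to Itgax on GRCm38 chromosome 7 (ENSMUSG00000070369.13, 128154376 to 128223816, forward strand, protein-coding). It is a low transcript. On day 8 WT stood at 0.247, 0.288 and 0.519 CPM and KO at 0.735, 0.767 and 1.18 CPM, and on day 10 WT stood at 0.363, 0.405 and 0.628 CPM and KO at 2.77, 3.3 and 3.34 CPM. The KO libraries lay above all WT libraries on all 3 days, and within KO the level of day 10 lay above that of day 8. Itgad rose by 2.22 on the log2 scale (SE 0.23, edgeR adjusted p 0.00010 in the library fit), and its call held in 40 of 40 alternatives to the library fit. In the joined animal sums it was not called, with an edgeR adjusted p of 0.059 to 0.13. The difference between days was not called for it, with an adjusted p of 1. The neighbours that encode the chains CD11c and CD11b did not pass the library fit, with log2 fold changes of -0.22 for Itgax (SE 0.096, adjusted p 0.23) and 0.02 for Itgam (SE 0.089, adjusted p 0.92). Without the 3 KO libraries of high Ddx3y Itgax was called lower (-0.30, SE 0.090, edgeR adjusted p 0.031) and Itgam was -0.13 (adjusted p 0.15). Without the 3 of low top-10 share they were -0.11 (adjusted p 0.63) and 0.14 (adjusted p 0.48). Cox6a2, on the opposite strand within Itgad, had 0.15 (SE 0.26, adjusted p 0.82), with 0.40 without the 3 KO libraries of low top-10 share and 0.043 without the 3 of high Ddx3y, and no strand setting of the counts is given in the sources used here. Of 21 integrin genes tested, Itgad was the one called, beside 3.85% of all genes.

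**Figure D3:**
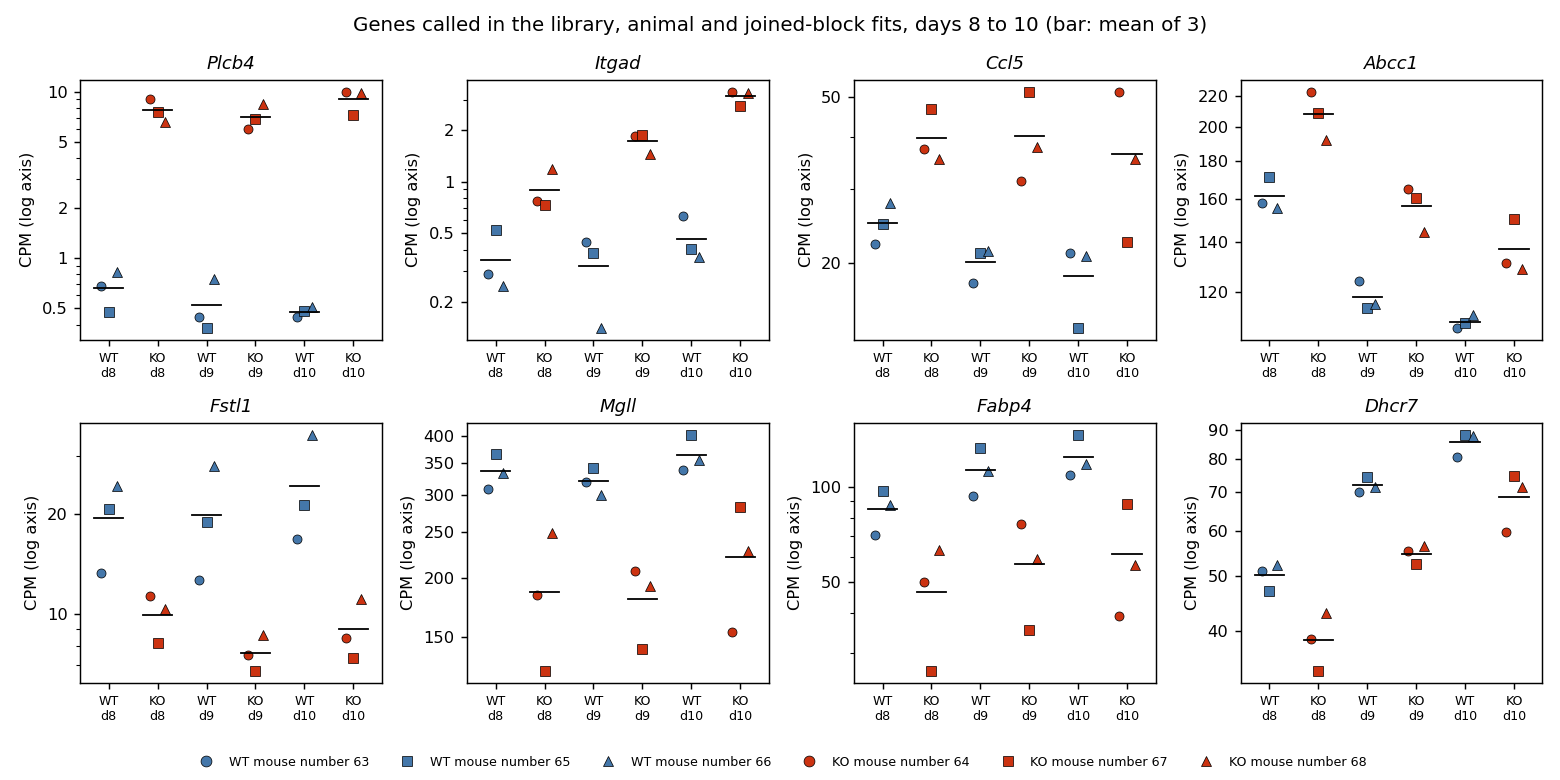
CPM on log axes for 4 genes that rose (top) and 4 that fell (bottom) in KO, in 18 libraries by genotype and day, with the mouse number as the symbol and the mean of 3 libraries as a bar. Plcb4 lies at 5.95 CPM or more in KO and 0.824 CPM or less in WT, and Mgll lies at 282 CPM or less in KO and 299 CPM or more in WT.

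The other 12 genes that rose did so by less than 2-fold, apart from Fam167a, at 1.05 (SE 0.15). They were taken because they passed all 3 kinds of fit, and those outside the naming rule were chosen after their values were seen. Ccl5, a chemokine for T cells and monocytes, stood at 14 to 27.9 CPM in WT (median 21.1) and 22.4 to 51.4 CPM in KO (median 37.4). The ranges overlapped through KO 67 on day 10, a library of high Ddx3y, and Ccl5 rose by 0.88 on the log2 scale (SE 0.14, adjusted p 0.0038 in the library fit). Serpinb2, an inhibitor of plasminogen activators, stood at 41 to 88.5 CPM in WT (median 59.5) and 61.5 to 156 CPM in KO (median 97), a log2 fold change of 0.69 (SE 0.11). Abcc1, an exporter of glutathione conjugates and leukotrienes, stood at 107 to 171 CPM in WT (median 116) and 129 to 223 CPM in KO (median 160). Its ranges overlapped across days but not within any day, and its log2 fold change was 0.37 (SE 0.042, adjusted p 0.00033). Dock4, an activator of the small GTPase Rac, rose by 0.41 (SE 0.059), and Atp8b4, a phospholipid flippase of the P4 family, by 0.41 (SE 0.073). Nxpe5 (0.37), Ankrd33b (0.47), Abtb2 (0.46) and the predicted gene Gm13546 (0.94) complete the set, together with Slfn1 and Ifi27l2a, which are given with the interferon genes.

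Genes of lipid handling were among the 19 that fell, a grouping made after their values were seen. Mgll, the lipase that frees fatty acids from monoacylglycerol, stood at 299 to 401 CPM in WT (median 338) and 127 to 282 CPM in KO (median 193). The genotypes did not overlap, and the 3 KO libraries of low top-10 share gave the lowest values, at 127, 141 and 154 CPM. Mgll fell by 0.80 on the log2 scale (SE 0.12, edgeR adjusted p 0.0028), and without those libraries the log2 fold change was -0.61 (SE 0.075). Fabp4, a fatty acid carrier of macrophages and fat cells, stood at 70.7 to 146 CPM in WT (median 109) and 26.3 to 88.1 CPM in KO (median 56.7), and the lowest KO values, 26.3, 35.5 and 39.2 CPM, came from the same 3 libraries. It fell by 0.96 (SE 0.17), and without those libraries the log2 fold change was -0.70 (SE 0.11). Pparg, the nuclear receptor known to drive Fabp4 in fat cells, stood at 27 to 44.4 CPM in WT (median 32.6) and 17.2 to 32.3 CPM in KO (median 26.8). It fell by 0.39 (SE 0.076, adjusted p 0.0093). Slc27a6, a fatty acid transport protein, fell by 1.32 (SE 0.26), from a median of 5.99 CPM in WT to 1.97 CPM in KO. Rbp4, the carrier of retinol, fell by 1.26 (SE 0.21), from a median of 5.65 CPM to 2.76 CPM. Over 41 alternatives Rbp4 and Slc27a6 kept their call in 38 and Fabp4 in 37. Without WT 65 none of Fabp4, Pparg, Slc27a6 and Rbp4 was called, while Mgll was, with an edgeR adjusted p of 0.040.

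Fstl1, a secreted follistatin-like glycoprotein, had no overlap between genotypes. On day 8 WT stood at 13.3, 20.7 and 24.4 CPM and KO at 8.15, 10.3 and 11.3 CPM, and on day 10 WT stood at 16.8, 21.3 and 34.7 CPM and KO at 7.38, 8.45 and 11.1 CPM. It fell by 1.26 on the log2 scale (SE 0.17, edgeR adjusted p 0.0018). Prickle2, a planar cell polarity protein, stood at 10.2 to 15.6 CPM in WT (median 14.1) and 3.29 to 10.1 CPM in KO (median 6.86), also without overlap, and fell by 1.07 (SE 0.18). Mamdc2 fell by 1.18 (SE 0.17), from a median of 65.2 CPM to 26 CPM, with overlapping ranges. Tyro3, a receptor kinase that restrains inflammation and binds to dying cells through bridging ligands, fell by 0.90 (SE 0.16), from a median of 13.6 CPM to 6.38 CPM. Mcoln3, a cation channel of endosomes and lysosomes, fell by 0.63 (SE 0.095), and Ptgir, the receptor for prostacyclin, by 0.44 (SE 0.071). The transcription factors Sox7 (-0.87) and Arnt2 (-0.90) fell, as did the ubiquitin-conjugating enzyme Ube2e2 (-0.83), the syntrophin Sntb1 (-0.65), the secreted kinase Pkdcc (-0.62), the protease Capn15 (-0.46) and the gamma-secretase subunit Aph1c (-0.43). Of the 12 largest decreases named by rule, 9 were among the 33 genes. The other 3, Col24a1 (-1.29), Bex1 (-1.18) and Klk1b1 (-0.83), passed the library and animal fits, with maximum limma adjusted p of 0.087, 0.087 and 0.074 in the joined block. Bex1 lost its call without the 3 KO libraries of low top-10 share (-0.91, edgeR adjusted p 0.094).

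**Figure D4:**
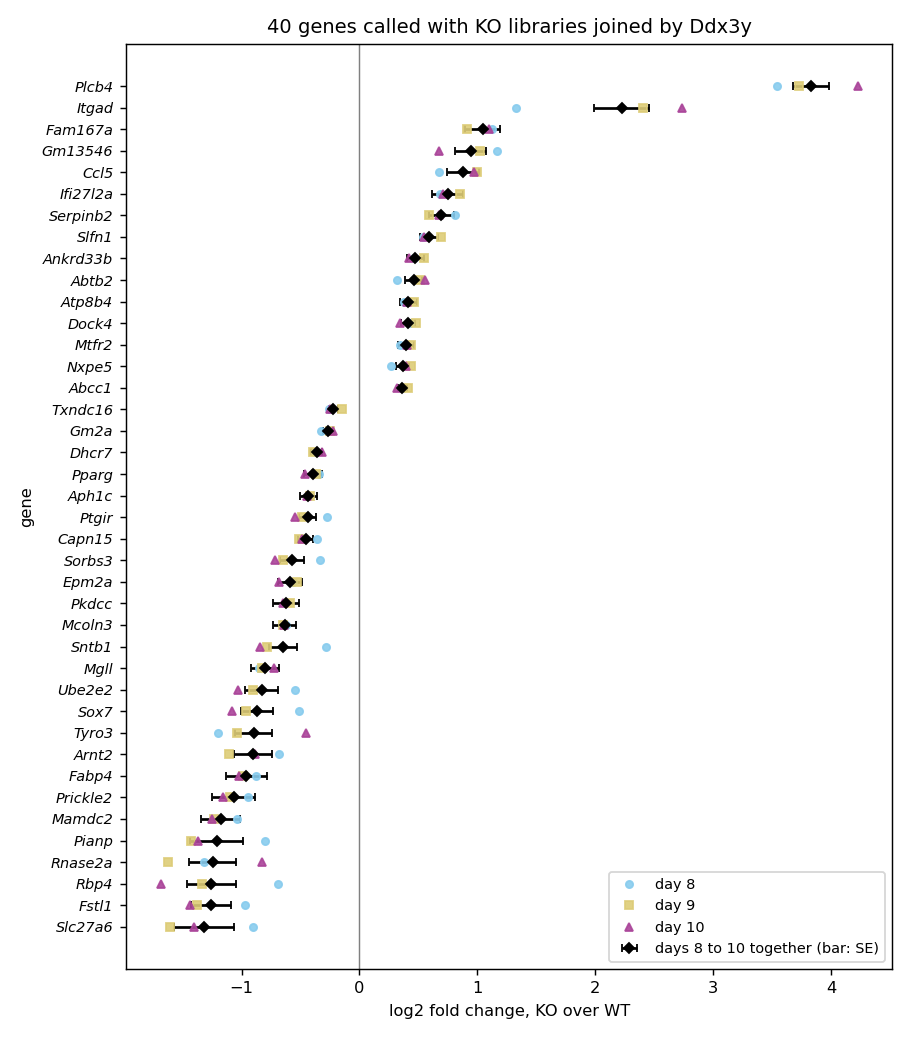
Log2 fold change of KO over WT for the 40 genes called in the joined block in all 4 orders: black diamonds show the 3 days together with the SE as bars, and coloured symbols show each day. All 40 genes, which were selected on these same days, keep their sign on each day, from 3.83 for Plcb4 to -1.32 for Slc27a6.

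Interferon-stimulated genes were higher in KO in the library fit. Of 62 tested, 24 were called higher (38.7%, against 2.4% of all genes) and 0 lower, 61 had a positive log2 fold change, and the median was 0.33 against 0.0044 for all genes. In the joined block, with its estimated correlation of 0.19 to 0.30, 0 to 3 of the 62 were called per order (0 in the fourth) and none in all 4. The list was chosen with earlier results of these data known. Irf7, the transcription factor that amplifies the interferon response, stood at 31.6, 33.1 and 34.7 CPM in WT and 41.6, 47.8 and 59.7 CPM in KO on day 8. On day 9 WT stood at 18.2, 18.3 and 18.7 CPM and KO at 36.5, 38.7 and 58.8 CPM. The KO libraries lay above those of WT on each day. Its log2 fold change was 0.87 (SE 0.14), with an edgeR adjusted p of 0.0038 in the library fit, 0.024 in the animal fit and limma adjusted p of 0.028 to 0.061 in the joined block. The fourth order did not call Irf7. Oasl1 (1.30, SE 0.21), a translational regulator of Irf7, and Oasl2 (0.73, SE 0.13), Xaf1 (0.53), Slfn8 (0.47), Oas2 (0.68), Nlrc5 (0.40), Oas1g (0.48), Ifi44 (1.13) and Ly6a (1.07) also passed the library and animal fits. Without the 3 KO libraries of low top-10 share Ly6a (0.55, edgeR adjusted p 0.17), Ifi44 (0.83, adjusted p 0.088) and Oas1g (0.36, adjusted p 0.057) lost their call.

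The median of the interferon list was 0.26 on day 8, 0.50 on day 9 and 0.24 on day 10, and without day 9 the library fit called 0 of its members, against 13 without day 8, 6 without day 10, 4 without WT 65 and 2 without WT 66. The median over the 62 genes of each library's deviation from the WT mean of its day was 0.008 in KO 68 on day 8 and 0.012 in KO 67 on day 10, which are 2 of the 3 libraries of high Ddx3y. It was 0.17 to 0.73 in the other 7 KO libraries and -0.14 to 0.22 in WT. Without the 3 libraries of high Ddx3y, 57 members were called, and without the 3 of low top-10 share, 13. Of the 8 markers of plasmacytoid dendritic cells, which make much type I interferon, Bst2, itself an interferon-inducible gene, gave nearly all of the summed 322 to 468 TPM in WT and 347 to 551 TPM in KO. Siglech stood at 0.06 TPM or less in WT and 0.19 TPM or less in KO, Ccr9 at 0.1 TPM or less in both, and Klk1 at 0.44 TPM or less. Other members were present at low levels. Spib stood at 1.59 to 4.96 TPM in WT and 1.84 to 9.2 TPM in KO, and Cd300c at 1.79 to 10 TPM and 1.53 to 11.9 TPM. Tcf4 stood at 2.2 to 2.97 TPM and Ly6d at 0.14 to 2.52 TPM over both genotypes. The part of these cells was not tested. Of 28 genes of nucleic acid sensing and interferon induction, 2 were called higher (2.4% of all genes were), Adar (0.24) and Ifngr1 (0.32), and the median was 0.04. Neither passed the joined block, with limma adjusted p of 0.084 to 0.16, and Adar lost its call without the 3 libraries of low top-10 share (0.17, edgeR adjusted p 0.072). Outside the list, Slfn1, a lymphocyte growth regulator of the schlafen family, and Ifi27l2a, an interferon-inducible gene, rose. Slfn1 stood at 42.9 to 72.6 CPM in WT (median 57) and 65.5 to 111 CPM in KO (median 84.1), a log2 fold change of 0.59 (SE 0.076). Ifi27l2a had 0.75 (SE 0.13), with 30.1 to 52 CPM in WT and 30.9 to 99.7 CPM in KO.

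Promoters of 3 called interferon-stimulated genes are shown because they hold letters of the element through which interferon-activated transcription factors are known to act. Each is 300 bases from RefSeq on GRCm38.p6, from 250 bases before the start to 50 after it, written 5′ to 3′ on the gene's strand, with matches to GAAANNGAA, the core of the interferon-stimulated response element, or its reverse TTCNNTTTC in capitals (adjacent matches overlap). Isg15, which encodes a ubiquitin-like protein, lies on chr4:156200769-156201068, reverse strand, Oas1a, an antiviral oligoadenylate synthetase, on chr5:120907476-120907775, reverse strand, and Ifit1, which binds viral RNA, on chr19:34640639-34640938, forward strand.
Isg15: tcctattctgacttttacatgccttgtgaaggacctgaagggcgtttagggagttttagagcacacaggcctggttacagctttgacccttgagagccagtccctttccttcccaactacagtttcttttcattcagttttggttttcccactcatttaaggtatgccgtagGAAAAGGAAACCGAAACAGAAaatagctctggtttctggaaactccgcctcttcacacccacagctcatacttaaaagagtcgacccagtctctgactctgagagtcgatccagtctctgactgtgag
Oas1a: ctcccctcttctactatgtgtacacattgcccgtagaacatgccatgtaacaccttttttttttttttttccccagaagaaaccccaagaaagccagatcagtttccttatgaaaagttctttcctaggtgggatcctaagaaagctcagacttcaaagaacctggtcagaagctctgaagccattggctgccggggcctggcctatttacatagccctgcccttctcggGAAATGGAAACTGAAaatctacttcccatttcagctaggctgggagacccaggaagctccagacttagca
Ifit1: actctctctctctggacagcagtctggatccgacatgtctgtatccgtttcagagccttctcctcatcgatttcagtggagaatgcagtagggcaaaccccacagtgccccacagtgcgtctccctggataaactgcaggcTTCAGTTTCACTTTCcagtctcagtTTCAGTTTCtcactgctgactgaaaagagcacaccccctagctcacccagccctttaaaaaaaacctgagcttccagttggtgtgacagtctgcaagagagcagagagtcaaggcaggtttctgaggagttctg

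Isg15 stood at 7.84, 8.14 and 8.29 CPM in WT and 12.3, 13.1 and 21 CPM in KO on day 9, and Ifit1 at 6.76, 7.1 and 7.19 CPM and 12.6, 12.8 and 20.9 CPM. Their log2 fold changes over the 3 days were 0.72 (SE 0.14) and 0.70 (SE 0.17), and that of Oas1a was 0.35 (SE 0.069). All 3 were called in the library fit and not in the animal fit, where edgeR's adjusted p was 0.071 for Isg15, 0.12 for Ifit1 and 0.068 for Oas1a. Ifit1 also lost its library-fit call without the 3 KO libraries of low top-10 share (0.49, adjusted p 0.090). Either strand was searched, and a promoter counted once however many matches it held. By symbol 10411 tested genes had a promoter in the table, and 9.08% of them held a match, against 9 of 16 called interferon-stimulated genes (56.2%) and 18 of 30 that were not called (60%). Among genes called higher but not on the list, 31 of 238 (13%) held one. The share was thus similar in called and uncalled members of the list, and a match is a description of the sequence only. A match was present in 8.56% of all 32851 RefSeq promoters. A stricter form, in which the core is followed by 1 further A on its strand, was searched first, and the shorter core was chosen after the shares of the stricter form had been seen. The stricter form was present in 3.99% of the tested genes' promoters, in 8 of the 16 called members (50%), in 17 of the 30 not called (56.7%), in 13 of the 238 called higher off the list (5.46%) and in 3.44% of all promoters.

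Maturation genes of dendritic cells were the other large group. Of 34 tested, 12 were called higher (35.3%, against 2.4%) and 1 lower in the library fit, with a median of 0.49 against 0.0044, and 9 of the 12 also passed the animal fit. Ccl5 alone passed the joined block in all 4 orders, with 1 to 2 calls per order. Traf1, a signalling adaptor of TNF receptors, stood at 14.8 to 22.7 CPM in WT (median 19) and 21.5 to 45.1 CPM in KO (median 29.3), a log2 fold change of 0.74 (SE 0.13). Its highest values, 45.1, 37.5 and 43.9 CPM, came from the 3 KO libraries of low top-10 share, without which it was 0.48 (SE 0.074, edgeR adjusted p 0.0039). Ccr7 stood at 29.7 to 61 CPM in WT (median 37.5) and 48.9 to 157 CPM in KO (median 63.8). Its highest values, 157, 114 and 138 CPM, came from the same 3 libraries, and its log2 fold change was 1.09 (SE 0.22), with an edgeR adjusted p of 0.012 in the library fit, 0.027 in the animal fit and limma adjusted p of 0.081 to 0.11 in the joined block. Without those 3 libraries it was 0.58 (SE 0.11, edgeR adjusted p 0.013). Fscn1, the actin-bundling protein fascin, had its highest values in the same 3 libraries (222, 110 and 117 CPM against 22.8 to 56.3 CPM in WT). Its log2 fold change was 1.23 (SE 0.28), and 0.60 (SE 0.13) without them. Cacnb3 (0.98), Marcksl1 (0.52), Tnfrsf9 (0.81), Ccl22 (0.96) and the co-stimulatory ligand Cd86 (0.62) were the other members past both fits, and Cd200 (-0.74), an inhibitory surface glycoprotein, was the 1 called lower. Without the 3 libraries of low top-10 share Cd86 (0.25, edgeR adjusted p 0.16), Tnfrsf9 (0.60, adjusted p 0.078) and Cd200 (-0.52, adjusted p 0.16) lost their call, while Cacnb3 (0.55) and Ccl22 (0.52) kept it.

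The maturation list followed the split of the KO libraries. Its median deviation from WT of the day was 0.88, 0.86 and 0.77 in the 3 libraries of low top-10 share, -0.10 to 0.39 in the other 6 KO libraries and -0.18 to 0.11 in WT. Without those 3 libraries, 7 members were called higher and the median of the list was 0.21, and without the 3 of high Ddx3y, 24 and 0.64. Without day 8, 9 or 10 the library fit called 2, 0 and 4 of its members higher, and without WT 65 it called 1.

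Other lists moved with the same libraries. In the 3 of low top-10 share, in the order of the days, the median deviation was 0.76, 0.77 and 0.46 for 13 dendritic cell markers, 0.78, 0.93 and 0.63 for 15 genes of MHC class II presentation and 0.92, 0.44 and 0.49 for 52 genes of G2 and mitosis. In the 3 libraries of high Ddx3y it was -0.29, -0.38 and -0.36 for the dendritic cell markers, -0.18, -0.45 and -0.55 for MHC class II and -0.77, -0.65 and -0.80 for G2 and mitosis. No member of these 3 lists was called in the library fit, and 3 genes (H2-Ab1, Cd74 and Ciita) are both dendritic cell markers and MHC class II genes. Without the 3 libraries of high Ddx3y, 7 dendritic cell markers, 9 genes of MHC class II and 37 of G2 and mitosis were called higher and 2, 1 and 0 lower. Without the 3 of low top-10 share, 0 were called higher and 0, 0 and 1 lower. The part of cell composition and of cell division in the maturation difference was not tested.

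**Figure D5:**
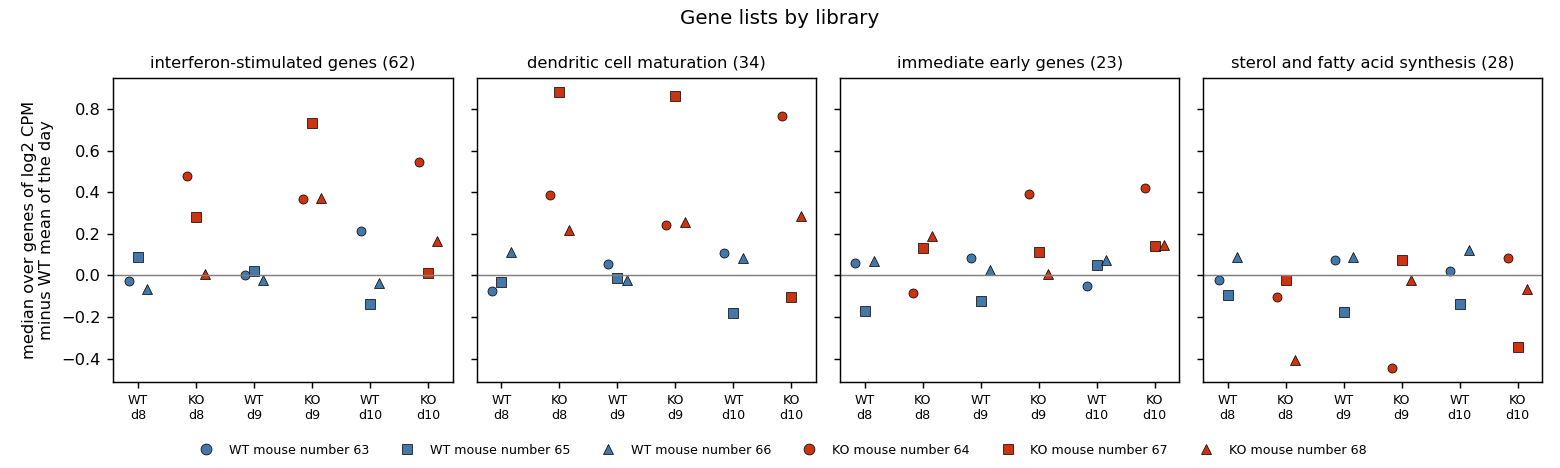
Median over the genes of 4 lists (number of genes in each title) of log2 CPM in a library minus the WT mean of the same day, for 18 libraries by genotype and day, with the mouse number as the symbol. KO 67 on days 8 and 9 and KO 64 on day 10 lie at 0.77 to 0.88 in the maturation list, above every other library.

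Immediate early genes, which respond within minutes to signalling, gave 7 of 23 called higher (30.4%, against 2.4% of all genes) and 0 lower, with a median of 0.08. In the joined block 0 of the 23 were called in every order. Without any 1 of the 3 days 1 member was called, and without the 3 KO libraries of low top-10 share, 3. Fosb stood at 1.15 to 7.05 CPM in WT (median 2.43) and 3.85 to 25.8 CPM in KO (median 9.56), a log2 fold change of 1.71 (SE 0.27). Dusp1, a phosphatase of MAP kinases, had 0.62 (SE 0.11), Fos 0.76 (SE 0.15) and Ier3 0.45 (SE 0.092). Nr4a3 and Zfp36 also passed the library and animal fits, while Junb passed the library fit only. Their ranges overlapped between genotypes. Without the 3 KO libraries of low top-10 share Nr4a3 (0.35, edgeR adjusted p 0.19), Zfp36 (0.30, adjusted p 0.19), Junb (0.28, adjusted p 0.14) and Ier3 (0.34, adjusted p 0.057) lost their call, and without the 3 of high Ddx3y Fos was 0.50 (SE 0.11). Of 24 inflammatory cytokines and chemokines, Cxcl2 (0.74) and Cxcl3 (1.13), which attract neutrophils, were called in the library fit, with limma adjusted p of 0.13 or more in the joined block (2.4% of all genes were called higher). On each day the highest Cxcl3 value, 275, 124 and 43.5 CPM, came from the library of high Ddx3y, and without these Cxcl3 was 0.54 (SE 0.13) and Cxcl2 0.45 (SE 0.13).

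Of 28 genes of sterol and fatty acid synthesis, 4 were called lower (1.45% of all genes were) and 0 higher, 1 was in each order of the joined block, 24 had a negative log2 fold change, and the median was -0.12. The library fit called 1, 0 and 2 members lower without day 8, 9 or 10, and 3, 3 and 1 without WT 63, 65 or 66. On the log2(TPM + 1) scale 1 was called lower. Dhcr7, which makes cholesterol from its last precursor, passed the library fit, the animal fit and the joined block. On day 8 WT stood at 47.1, 51 and 52.3 CPM and KO at 34.1, 38.8 and 43 CPM, and on day 10 at 80.6, 87.8 and 88.2 CPM and 59.6, 71.5 and 74.6 CPM. The genotypes were apart on each day, and Dhcr7 fell by 0.36 (SE 0.049, edgeR adjusted p 0.0018). Insig1 (-0.31), which restrains the sterol-sensing pathway, Msmo1 (-0.27) and Sc5d (-0.26), enzymes of late cholesterol synthesis, were called in the library fit and not in the joined block, where limma adjusted p was 0.061 to 0.12. The median deviation of the list from WT was -0.41, -0.44 and -0.35 in the 3 KO libraries of high Ddx3y and -0.10 to 0.09 in the other 6 KO libraries. Without the 3 libraries of high Ddx3y, 3 members were called higher and 4 lower, the median was -0.00936, and Sc5d was -0.17.

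Among the 12 largest increases named by rule, several were of transcripts that are low in these cells. Ighg2b, an immunoglobulin heavy chain gene, stood at 0 to 0.519 CPM in WT (median 0.287) and 0.498 to 4.34 CPM in KO (median 2.02), a log2 fold change of 2.70 (SE 0.44). Igha stood at 0.665 to 6.8 CPM in WT (median 3.1) and 3.03 to 25 CPM in KO (median 14.8), a log2 fold change of 1.96 (SE 0.39). Both passed the library and animal fits, with overlapping ranges and limma adjusted p of 0.096 to 0.23 in the joined block. Over all immunoglobulin genes, a group chosen after its values were seen, 11 of 28 were called higher (2.4% of all genes were), 0 were called in the joined block and the median was 2.03. Jchain, which links polymeric immunoglobulins in plasma cells, had 1.62 (SE 0.35, adjusted p 0.016 in the library fit and 0.052 in the animal fit). Summed lymphocyte markers overlapped between genotypes, with 39.9 to 66 TPM in WT and 35.2 to 85.2 TPM in KO, 0 of 8 called and Gzma at 0. Ighm, itself an immunoglobulin gene, gave most of that sum, with 28.1 to 53.1 TPM in WT and 28.4 to 65.4 TPM in KO. The part of plasma cells in the difference was not tested.

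The remaining named increases were Tcf7 (1.79), a transcription factor of T cells and innate lymphoid cells, Dpysl5 (1.77), Dscam (1.53), Cd4 (1.53), the macrophage apoptosis inhibitor Cd5l (1.47), Spata31d1b (1.34), Fosb and Oasl1. Of these, Spata31d1b had no overlap, with 0.369 to 0.679 CPM in WT and 0.733 to 2.27 CPM in KO. Cd4 was also low, with 0.243 to 1.16 CPM in WT. In the joined block Tcf7, Dpysl5, Dscam, Cd4, Cd5l and Fosb were not called in any order. Spata31d1b was called there in the fourth order only, and Oasl1 missed orders 2 and 4. Dscam and Cd5l were called in the library fit at edgeR adjusted p of 0.049 and 0.047 and lost their call in 30 and 27 of 41 alternatives. Without the 3 KO libraries of low top-10 share Tcf7 was 1.06 (SE 0.19), Dpysl5 0.96 (SE 0.16) and Dscam 0.38 (edgeR adjusted p 0.31), and without the 3 of high Ddx3y Cd5l was 0.76 (adjusted p 0.062). Of 9 fibroblast markers 1 was called lower (1.45% of all genes were), Pdgfra, a growth factor receptor of stromal cells (-1.49, SE 0.29). It lost its call in 10 of 40 alternatives, among them the joined block in all 4 orders, and without WT 65 it was -1.16 (SE 0.27, edgeR adjusted p 0.067), and without the 3 KO libraries of low top-10 share -1.22 (adjusted p 0.059). All 9 had a negative log2 fold change, with a median of -0.85, which was -0.45 without the 3 KO libraries of low top-10 share and -1.43, with 6 called lower, without the 3 of high Ddx3y. Their summed level was low, at 9.02 to 26.6 TPM in WT and 7.82 to 19.1 TPM in KO. Beside 2.4% of all genes called higher, 2 of 14 macrophage markers were called higher, Cd5l, which also passed the animal fit, and Fcgr1 (0.31), 1 of 9 monocyte markers, Vcan (0.72), and 1 of 8 markers of mast cells and basophils, Gata2 (0.36). Fcgr1, Vcan and Gata2 did not pass the animal fit, and Gata2 was 0.20 (edgeR adjusted p 0.24) without the 3 libraries of low top-10 share. The joined block called none of Cd5l, Fcgr1, Vcan and Gata2 in any order. No neutrophil, lymphocyte, plasmacytoid or erythroid marker was called.

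The calls of lists tied to the cell cycle, DNA damage and the nucleus are set beside 2.4% of all genes called higher. None of 40 S phase genes (median 0.06) and none of 52 genes of G2 and mitosis (median 0.10) was called, although 37 and 50 of them had a positive sign. Of 36 genes of double-strand break repair, Trp53bp1 was called higher (2.78%; 0.17, SE 0.044), and of 32 targets of p53, Sesn2 (3.12%; 0.21, SE 0.056), which is also on the amino acid response list. Of 22 genes of the nuclear envelope, Syne3 (0.37), which ties the envelope to the cytoskeleton, and Tor1aip1 (0.15) were called higher (9.09%). These 4 genes did not pass the animal fit, and without the 3 KO libraries of low top-10 share Trp53bp1 (0.14), Sesn2 (0.12) and Tor1aip1 (0.12) also lost their call in the library fit. The range over KO libraries of the median deviation was wide for G2 and mitosis, from -0.80 to 0.92, against -0.24 to 0.17 in WT, with the ends in the 2 sets of KO libraries given above.

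Whether 1 genotype effect describes the 3 days was tested with the genotype by day terms. No gene was called by edgeR or in the likelihood ratio test of DESeq2, and 149 genes had an unadjusted p under 0.05 (1.04% of those tested). That share is smaller than chance alone would give at this threshold. The test was not run with KO libraries joined by Ddx3y, so spread between KO animals stayed in its error. The absence of calls therefore does not show that 1 effect describes the 3 days. The 3 days were then set against day 7 with all 24 libraries, 3 per genotype and day, as the mean effect of days 8 to 10 minus that of day 7. Here 25 of 14535 genes (0.172%) were called, 24 with a higher effect of KO on the later days and 1 with a lower one. At an unadjusted p under 0.05 there were 996.

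Asns, the asparagine synthetase, led these. On day 7 it stood at 33.2, 38.9 and 47.4 CPM in WT and 11.2, 12.7 and 14.5 CPM in KO, and on days 8 to 10 at 9.86 to 15.4 CPM in WT (median 13.6) and 8.08 to 15.6 CPM in KO (median 12.7). The gap of day 7 was absent from the later days, and the difference of the effects was 1.57 (SE 0.18, edgeR adjusted p 0.00042). Aars, the enzyme that charges alanine tRNA, had an effect of 0.0041 on the later days and -0.69 on day 7, a difference of 0.69 (SE 0.085). Ptx3, a secreted pattern recognition protein, stood at 25.6, 26.6 and 35 CPM in WT and 9.86, 10.3 and 10.4 CPM in KO on day 7, and at 11.3 to 39.7 CPM and 15.2 to 32.5 CPM later, a difference of 1.60 (SE 0.20). Cfp, which encodes properdin of the complement system, was the 1 gene with a lower effect later, 0.16 against 0.67 on day 7, a difference of -0.51 (SE 0.094). On the later days 1 of 32 genes of the amino acid response and tRNA charging was called, beside 3.85% of all genes, with a median of 0.02.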

How the data were processed

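Messenger RNA of 9 KO and 9 WT libraries of days 8, 9 and 10 was analysed, and the 6 libraries of day 7 entered the comparison with that day. The authors deposited raw counts per gene and TPM values. Per the submitters' processing notes, FastQC 0.11.9, STAR 2.6.1, DESeq2 1.22.2 and build mm10 were used. The counter, its strand setting and the annotation are not given in the sources used here. The labels name 2 library kits and do not tie them to libraries, so no kit term could be fitted.

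Of 55487 deposited genes, 28655 had a count and 14307 were kept by filterByExpr over the 6 groups. The library fit used edgeR 4.0.16 (R 4.3.3) with TMM, quasi-likelihood tests and day as a factor (14 residual degrees of freedom). The animal fit used sums per labelled mouse number (4 degrees of freedom), which for KO mix animals by Ddx3y. Both were two-sided with Benjamini-Hochberg adjustment at 0.05. The block fits used limma 3.58.1 (voom, duplicateCorrelation), and DESeq2 1.42.0 was an alternative. CPM carry TMM factors. Positions are from GENCODE M21, which matched 14305 of 14307 identifiers. The fits were tested on simulated data drawn independently for each library. That simulation held no spread shared by libraries of 1 animal and did not include the joined block. Replicates are mice, and precision from counts covers counting error only. No 2 libraries of the same genotype and day agreed within sampling noise (chi-square per degree of freedom 7.66 to 138).

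Same-numbered WT libraries deviated together from their group means (mean r = 0.28 over 9 pairs, range -0.004 to 0.50, across 10751 genes), while KO libraries did not (mean r = -0.11, range -0.78 to 0.79). The 3 KO libraries of high Ddx3y had a mean r of 0.71. Those of low top-10 share had r of 0.77 to 0.82 with each other and -0.23 to 0.077 with the remaining KO libraries of low Ddx3y. The remaining ones had r of -0.049 to 0.44 among themselves. The pairing comes from mouse numbers in the labels. KO libraries were therefore also joined by Ddx3y, in 4 orders.

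Named genes were Arpc4, Ddx3y and Xist, the 12 largest fold changes per direction that passed the library and animal fits at an average log2 CPM above 0 with a real symbol, up to 4 called members of each of 27 lists, and for the tests of differences the 3 smallest p per direction. The comparison, its lists (637 symbols) and the naming rule were chosen with earlier results of these data known. Alternatives are given in the closing section.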

Additional observations from a re-analysis of the deposited data

Results flagged for a closer look

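The effect of KO on days 8 to 10 differed from that on day 7 in 25 genes by edgeR's contrast of the effects, given here as log2 differences (later days minus day 7). Of 32 tested genes of the amino acid response and tRNA charging, 10 were called with a higher effect later and 0 with a lower one, beside 0.172% of all genes called, and the median of the list was 0.44 against 0.0044 for all genes. The groups named here were otherwise made after the values were seen. Beside Asns (1.57), Aars (0.693), Ptx3 (1.6) and Cfp (-0.513), the 25 held 5 further aminoacyl-tRNA synthetases and a tRNA exporter, namely Nars (0.432), Eprs (0.522), Cars (0.628), Sars (0.442), Yars (0.589) and Xpot (0.336). Genes of serine and one-carbon metabolism, amino acid uptake and the amino acid response were Psat1 (1.55), Mthfd2 (1.31), Slc7a1 (1.04) and Trib3 (0.965). Psat1 stood at 37.8 to 53.8 CPM in WT and 15.1 to 17.3 CPM in KO on day 7 and overlapped between genotypes on each later day. The others were Spred2 (0.727), Ghitm (0.404), Hspa9 (0.57), Trim35 (0.428), Ccn3 (1.09), Hmga1 (0.467), Cyb5r1 (0.563), Cldn12 (0.91), Bcl2 (0.942), Cyp1b1 (0.883) and Cox6a2 (2.44). With KO libraries joined by Ddx3y in 8 orders 28 to 41 genes were called, 23 of the 25 among them in each order.

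Among 104 groups of 9 libraries examined, 1 value stood far from its group, where chance flags about 1 group in 20. Pdgfra in WT 65 on day 8, at 2.47 CPM, had a gap to the next library of 0.576 of the whole range on the log2(CPM + 0.1) scale, above the critical 0.493 for 9 values. Without WT 65 Pdgfra was no longer called, at a log2 fold change of -1.16 (edgeR adjusted p 0.067).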

How the results depend on the processing

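Median log2 fold changes of all genes were 0.0044 with TMM and 0.0088 with DESeq2 size factors, and no named gene called in the library fit changed direction under the alternatives run. Genes called in the library fit (551) became 953 in the DESeq2 Wald test, 93 when at least a 2-fold difference was required, and 132, 3 and 85 without day 8, 9 or 10. With the replicate block and KO libraries joined by Ddx3y they became 55, 50, 59 and 47, against 628 with labelled numbers. Leaving out 1 mouse number (for KO not 1 animal by Ddx3y) gave 67 (WT 65) to 850 (KO 68) and leaving out 1 library 271 (WT 65, day 9) to 986 (KO 68, day 8). Alternatives chosen after seeing the data gave 252 without the 3 KO libraries of low top-10 share and 2793 without the 3 of high Ddx3y. The animal fit (238) became 946 in the DESeq2 Wald test, 1076 without a filter on low counts, 140 at 50 counts or more, 64 when at least 2-fold, 10 (without KO 64) to 925 (without KO 68), and 1, 1, 1 and 1 with joined numbers. With Xist as a covariate 49.4% of its calls were higher, against 63.9%, and the joined block gave 38.3% to 45.8% higher, against 62.4%. The genotype by day test called 0 genes in every alternative, none of which joined KO libraries by Ddx3y. The difference from day 7 (25) became 60 in the DESeq2 Wald test, 16 in the labelled replicate block, 41 in 1 joined order and 3 (without WT 65 or 66) to 14 with 1 mouse number left out. The causes were not tested. Depth limits Plcb4, Itgad, Spata31d1b and Ighg2b, which stand below 1 CPM in WT, and Cd4, which stands at 0.243 to 1.16 CPM in WT.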

Other observations

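Outside the lists, 7 of the 40 genes called in the joined block missed the animal fit. Mtfr2, a regulator of mitochondrial fission, had a log2 fold change of 0.40 (SE 0.069), with 5.77 to 11.8 CPM in WT and 7.38 to 15.6 CPM in KO. Rnase2a, a ribonuclease of the eosinophil-associated family, had -1.25 (SE 0.20), with medians of 4.17 CPM in WT and 1.91 CPM in KO. Epm2a, the glycogen phosphatase laforin, had no overlap, with 8.7 to 13.5 CPM in WT and 6.15 to 8.13 CPM in KO. Gm2a, the activator protein for breakdown of GM2 ganglioside, had the highest level of the 7, with 812 to 1017 CPM in WT and 656 to 871 CPM in KO. Sorbs3 (-0.57), an adaptor of focal adhesions, Pianp (-1.21) and Txndc16 (-0.22) were the others, and edgeR adjusted p in the animal fit ran from 0.052 to 0.066.

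Genes without overlap that missed the joined block in at least 1 order included Dst, a linker between cytoskeletal filaments, with 38.6 to 63.8 CPM in WT and 64.6 to 114 CPM in KO, a log2 fold change of 0.60 (SE 0.10). Adgrg6, an adhesion G protein-coupled receptor, stood at 7.7 to 10.3 CPM in WT and 11.6 to 29.4 CPM in KO, a log2 fold change of 0.79 that was 0.48 without the 3 KO libraries of low top-10 share. Ptpn7, a phosphatase of MAP kinases in blood cells, stood at 132 to 152 CPM in WT and 157 to 169 CPM in KO, a log2 fold change of 0.16 (SE 0.031). Tnrc18 stood at 102 to 128 CPM in WT and 130 to 166 CPM in KO. These genes were chosen after their values were seen.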
